A study of Mus musculus with 6 samples.

Results

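The genes described here are the major urinary protein genes of the mouse: Mup1, Mup2, Mup3, Mup5, Mup7, Mup11, Mup17, Mup19, Mup20 and Mup21, taken by symbol from a table of liver gene expression. All 10 listed genes were present among 28450 rows in all, 42 of them rows whose symbol begins with Mup. The other 32 Mup rows are 11 further genes and 21 pseudogenes. Liver RNA enriched for mRNA was sequenced from 3 male Acsm3 knockout mice and 3 male control mice of genotype WT, all 12 weeks old and fed a normal diet. Acsm3 encodes a medium-chain acyl-CoA synthetase of mitochondria, and its loss is the only difference between the groups that the labels name. The labels do not state the strain, the construct of the deletion or whether it was limited to one cell type. Nothing in the labels ties same-numbered mice of the 2 groups to a shared litter.

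Major urinary proteins are small lipocalins, barrel-shaped carriers that hold volatile ligands. Hepatocytes of male mice make them in very large amounts, and the kidney passes them into urine, where they release bound pheromones slowly and serve as scent marks of individual identity. Their transcription in liver depends on pulsed growth hormone acting through JAK2 and STAT5B, and on androgen, thyroid hormone and glucocorticoid. Mup20 encodes darcin, a male pheromone that attracts females by itself, whereas Mup5 is best known from glands of the head.

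Values are FPKM, the fragments assigned to a gene per kilobase of its exons and per unit of sequencing depth. Levels compare only roughly between genes, since the length joins all annotated exons: 1584 bases for Mup1, whose coding transcript has 927. Acsm3 itself stood at 33.2, 34.4 and 32.2 FPKM in the controls and at 0.668, 2.92 and 1.08 in the knockouts, a mean 21.4-fold lower. The size of 1 fragment in the low values implied totals of about 15300000 to 16300000 fragments per mouse. Differences were tested with limma on log2(FPKM + 1) in the 10996 genes whose mean reached 1 FPKM, and a gene was called at a Benjamini-Hochberg adjusted p under 0.05 over all of them. This called 16.5% of the tested genes, 13.9% higher in knockout (1532 genes) and 2.61% lower (287 genes). Rescaling the mice by median ratios turned that split to 739 higher and 921 lower, and quantile normalization to 783 and 612. The median log2 difference of all tested genes was 0.13 as deposited, -0.04 after median-ratio rescaling and -0.03 after quantile normalization.

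Of the 10 genes, Mup20 alone was called, and it was higher in the knockouts. It stood at 1233, 646 and 893 FPKM in the 3 controls and at 3027, 4319 and 3039 FPKM in the 3 knockouts. Every knockout lay above every control. The log2 difference was 1.93 ± 0.26 (SE), with an adjusted p of 0.0108 in limma's fit and both groups of n = 3. From 924 ± 295 to 3462 ± 742 FPKM (SD, n = 3 each), Mup20 moved from rank 53 among all genes in the controls to rank 13 in the knockouts. Its gain in mean FPKM was the 2nd largest in the table.

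**Figure D1:**
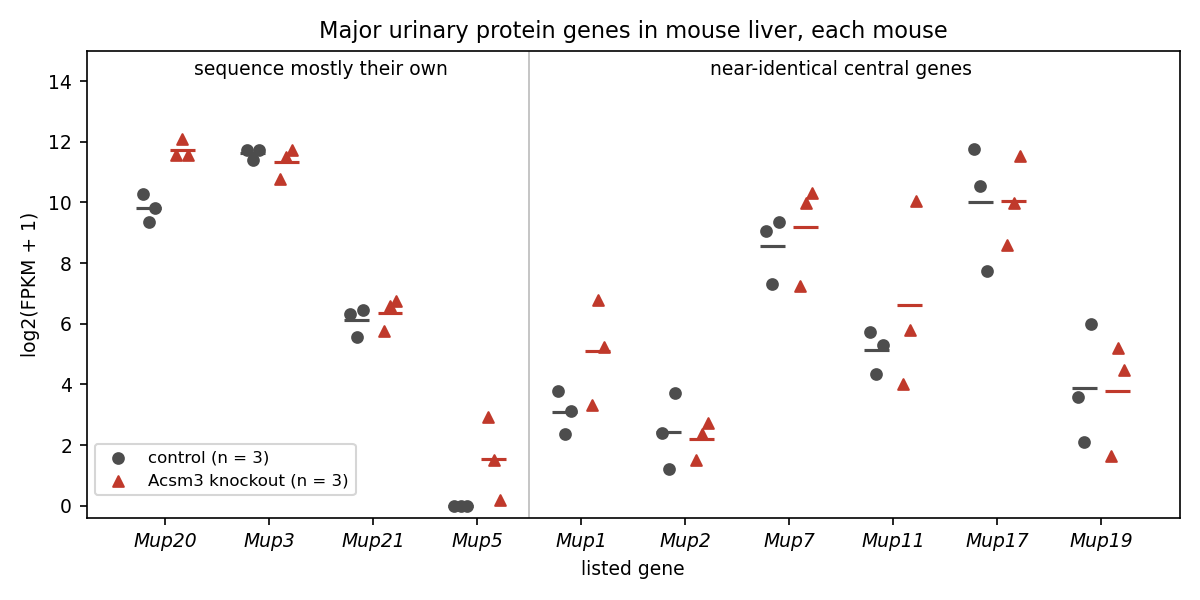
Level of each listed Mup gene as log2(FPKM + 1) in every mouse, with controls as grey circles, Acsm3 knockouts as red triangles and group means as bars (n = 3 each). The 3 Mup20 knockout values, 3027 to 4319 FPKM, lie above the 3 control values, 646 to 1233 FPKM, while the central genes on the right vary widely within both groups.

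The sequences of these genes bear on which values can be read singly. The listed genes lie on the minus strand of chromosome 4 (GRCm38) between bases 60066469 and 62150863, a span of 2084 kb. Within it, 15 genes with a Mup symbol form a near-identical central group, here those with under 50% of their 100-base transcript windows found in no other annotated gene (0% to 40.6%). Mup1, Mup2, Mup7, Mup11, Mup17 and Mup19 belong to it, and 9 of the 15 are not among the listed genes. Over their coding sequences the 6 listed central genes were 98.7% to 99.8% identical to one another, with 1 to 7 differing bases per pair. Mup20 was 90.6% to 91.5% identical to them, with 46 to 51 differing bases. None of the 829 windows of Mup20 occurred in a central gene, and 507 occurred in no other gene. The remainder occurred in the pseudogene Mup-ps19 and in no further gene. Mup3, Mup21 and Mup5 had 97.1%, 95.5% and 98.7% of windows of their own.

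A stretch of 48 bases shows where the genes differ most from Mup20. It covers positions 229 to 276 of the Mup20 coding sequence, counted from its start codon. Of the gap-free stretches of this length compared, it had the most differences from Mup20 in total, so it is not typical of the whole coding sequence. It is printed 5′ to 3′ from the GENCODE M21 transcripts, and capitals mark bases that differ from Mup20. The near-identical genes are shown by Mup1 and Mup17, which differ from each other by a single base in this stretch.
Mup20: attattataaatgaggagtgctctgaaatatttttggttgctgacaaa
Mup-ps19: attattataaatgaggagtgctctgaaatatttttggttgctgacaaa
Mup1: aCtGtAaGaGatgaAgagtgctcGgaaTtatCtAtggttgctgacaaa
Mup17: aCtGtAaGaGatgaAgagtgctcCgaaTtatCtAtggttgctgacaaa
Mup5: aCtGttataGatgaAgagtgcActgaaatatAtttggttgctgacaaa
Mup3: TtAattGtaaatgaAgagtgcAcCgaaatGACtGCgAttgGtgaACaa
Mup21: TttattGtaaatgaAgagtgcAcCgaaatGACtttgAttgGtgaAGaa
Each of the 6 listed central genes carried 10 differences from Mup20 here. Mup5 carried 6, Mup21 12, Mup3 15 and Mup-ps19 0.

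Mup20 spans chr4:62050234-62054158, and its nearest relative in sequence, Mup-ps19, spans chr4:61957149-61959911. An unprocessed pseudogene, Mup-ps19 shared 89.8% of its 50-base windows with Mup20. It was listed at 204, 95.5 and 167 FPKM in controls and at 703, 837 and 461 FPKM in knockouts, again with no overlap. Its log2 difference was 2.12 ± 0.32 (SE), with an adjusted p of 0.0138, and the adjusted p was 0.0518 without the third control and 0.0523 without the second knockout. The ratio of Mup-ps19 to Mup20 was 0.165, 0.148 and 0.186 in controls and 0.232, 0.194 and 0.152 in knockouts, so these ranges overlapped. The labels and processing notes do not state how fragments that match both were assigned, and the pseudogene value is therefore uncertain. With both added together the sum was 1436, 741 and 1059.7 FPKM in controls and 3731, 5156 and 3500.5 in knockouts. Exon lengths are 928 bases for Mup20 and 519 for Mup-ps19, so this sum still depends in part on how shared fragments were assigned. That sum gave a log2 difference of 1.97 ± 0.26 (SE) and an adjusted p of 0.0112, a fit added after the data had been seen. Over all alternatives the adjusted p of Mup20 ran from 0.00752 to 0.0464.

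Between these lies the pseudogene Mup-ps21, which has 94.7% of its 50-base windows to itself. It was listed at 0, 0 and 1.56 FPKM in controls and at 20.8, 47.7 and 2.21 in knockouts. The adjusted p was 0.0526, and 2 of the 3 knockouts carried nearly all of its signal. It passed the threshold in 3 of 15 alternatives, with adjusted p of 0.0417 at a pseudocount of 0.1, 0.0389 with a common sum outside the Mup list and 0.00665 without the third knockout. Over all 15 the log2 difference ran from 1.97 to 5.69 and the adjusted p from 0.00665 to 0.144.

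Mup3 and Mup21, the other listed genes with a sequence of their own and a level far above the filter, did not pass the test. Of the 10 genes Mup3 had the highest mean in controls, although Mup17 was higher in the first control. The Mup3 values were 3424, 2712 and 3427 FPKM in controls and 1735, 2921 and 3404 FPKM in knockouts. Its log2 difference was -0.29 ± 0.25 (SE), adjusted p 0.447. Only the first knockout fell below the controls, and the others lay within their range. Mup21 stood at 79.0, 46.6 and 85.8 FPKM in controls and at 52.6, 95.9 and 107 FPKM in knockouts, with a log2 difference of 0.25 ± 0.32 (SE) and an adjusted p of 0.614. The 2 groups overlapped for both genes, and these intervals do not show that the levels were equal.

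Ratios within a mouse do not depend on how libraries are scaled. The ratio of Mup20 to Mup3 was 0.36, 0.238 and 0.261 in the controls and 1.74, 1.48 and 0.893 in the knockouts. Mup3 thus exceeded Mup20 in every control, and Mup20 exceeded Mup3 in 2 of 3 knockouts. The ratio of Mup20 to Mup21 was 15.6, 13.8 and 10.4 in controls and 57.5, 45.0 and 28.5 in knockouts, again without overlap. Against the summed 15 central genes the groups did overlap, with ratios of 0.242, 0.293 and 0.618 in controls and 3.75, 1.17 and 0.479 in knockouts. The ratio of Mup21 to Mup3 was 0.0231, 0.0172 and 0.025 in controls and 0.0303, 0.0328 and 0.0313 in knockouts, a smaller shift that also left the groups apart. With 3 mice against 3, an exact permutation test of such a ratio cannot give a p below 0.1, so none was called.

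Mup5 was listed at 0 in all 3 controls and at 6.59, 1.84 and 0.134 FPKM in the knockouts. These values correspond to about 94.8, 26.1 and 2 fragments. The groups did not overlap, but the adjusted p was 0.127. Its fitted log2 difference of 1.54 ± 0.62 (SE) depends on the added constant, 3.85 with a constant of 0.1 and 0.57 with a constant of 5. Mup5 and Mup20 were the only listed genes whose groups did not overlap, 2 of 10, where 33.9% of all tested genes had every knockout above every control.

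The 6 listed central genes varied widely from mouse to mouse within both groups, and none was called. Mup17 was the most abundant of them, at 3457, 1477 and 213 FPKM in controls and 389, 1007 and 2946 FPKM in knockouts. The highest control was 16.2 times the lowest, and the log2 difference was 0.03 ± 1.12 (SE). Mup7 stood at 531, 158 and 647 FPKM in controls and 150.4, 1007 and 1273 FPKM in knockouts, a log2 difference of 0.61 ± 0.89 (SE). Among the controls the order differed, since the third control was the lowest control for Mup17 and the highest for Mup7. Among the knockouts both genes were lowest in the first and highest in the third.

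Mup11 was listed at 52.2, 19.4 and 38.6 FPKM in controls and at 15.2, 54.9 and 1062 FPKM in knockouts. Its mean was 10.3 times higher in knockouts through 1 mouse. Without the third knockout the log2 difference, 1.49 with all mice, was -0.22. Mup1 stood at 12.6, 4.11 and 7.67 FPKM in controls and 8.92, 108 and 36.4 FPKM in knockouts, with an adjusted p of 0.135. Without the first knockout its log2 difference of 2.03 became 2.92 and its adjusted p 0.0493, within a range of 0.0493 to 0.31 over all alternatives.

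Mup19 and Mup2 were the least abundant listed central genes in the knockouts. Mup19 stood at 10.9, 3.32 and 62.3 FPKM in controls and 2.11, 35.6 and 21.4 FPKM in knockouts. Mup2 stood at 4.21, 1.32 and 12.2 FPKM in controls and 1.87, 4.11 and 5.55 FPKM in knockouts. The third control was the highest control for both genes, and the first knockout was the lowest of the knockouts for all 6 central genes. Because these transcripts share most of their sequence, the division of fragments among them is uncertain. Summed with the 9 unlisted central genes they came to 5101, 2206 and 1444 FPKM in controls and 806, 3689 and 6346 FPKM in knockouts. Exon lengths run from 925 bases for Mup15 to 1584 for Mup1, so this sum still depends in part on the division. The log2 difference of that sum was 0.07 with a within-group SD of 1.27, and the lowest and highest of the 6 mice were both knockouts. A further gene of this kind carries no Mup symbol in the table: Gm21320, which GENCODE M21 names Mup22, holds 50.7% to 85.9% of the 50-base windows of each of the 15 central genes. It stood at 450.4, 115 and 429 FPKM in controls and 63.7, 254 and 252 FPKM in knockouts, with an adjusted p of 0.451. With it included, after the values had been seen, the log2 difference of the sum was -0.03 with a within-group SD of 1.22.

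**Figure D2:**
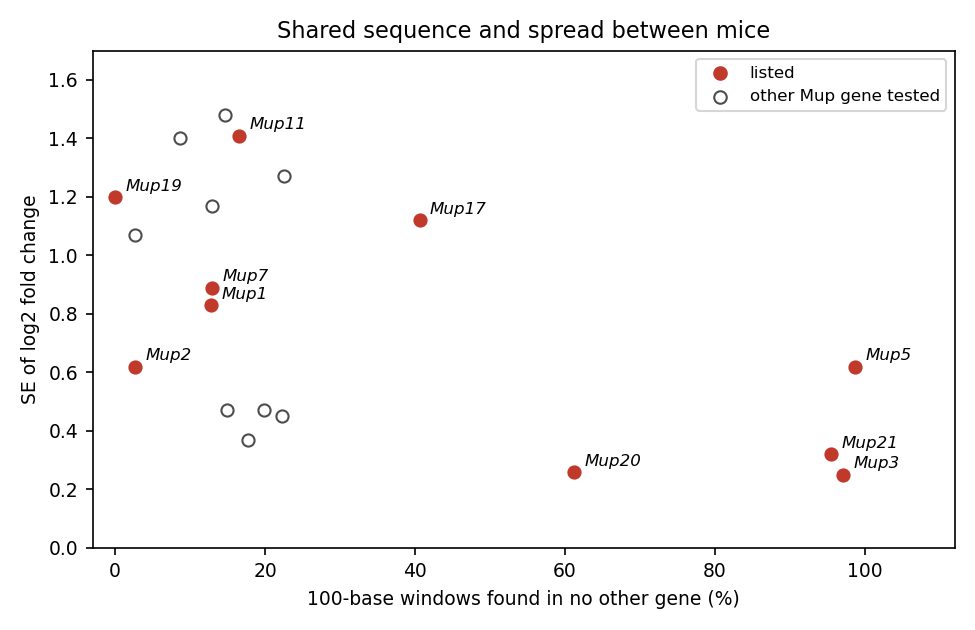
SE of the log2 fold change (vertical) against the percentage of 100-base transcript windows found in no other annotated gene (horizontal), with listed genes filled and other tested Mup genes open. Mup20, Mup3 and Mup21 have SEs of 0.26, 0.25 and 0.32, below the 0.37 to 1.48 of the central genes on the left. Mup5, with 98.7% of windows of its own, has an SE of 0.62, within the range of the central genes.

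Ordered by mean level, the controls had Mup3 at 3188 ± 411 FPKM (SD, n = 3), Mup17 at 1716 ± 1635, Mup20 at 924 ± 295 and Mup7 at 445 ± 256. Each of these overlapped its neighbour in the range over mice, Mup20 and Mup7 only at 646 and 647 FPKM. Mup21 followed at 70.5 ± 20.9 FPKM, clear of Mup7, then Mup11 at 36.7 ± 16.5 and Mup19 at 25.5 ± 32.1. The lowest were Mup1 at 8.11 ± 4.24, Mup2 at 5.93 ± 5.66 and Mup5 at 0 FPKM. From Mup21 to Mup2 every neighbour overlapped, and only Mup5 stood apart. In the knockouts Mup20 was first at 3462 ± 742 FPKM and Mup3 second at 2687 ± 859 FPKM. Their ranges overlapped.

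Summed over the 10 genes, FPKM came to 8803, 5068 and 5386 in controls and 5389, 9555 and 11895 in knockouts. The sum was 2.23%, 1.31% and 1.4% of all FPKM in the controls and 1.48%, 2.61% and 3.16% in the knockouts. The groups overlapped, and the log2 difference of the sum was 0.45 with a within-group SD of 0.52. Without Mup20 the sum of the other 9 genes was 5495 ± 1797 FPKM in controls and 5485 ± 3254 FPKM in knockouts (SD, n = 3 each). Mup20 made up 14.0%, 12.7% and 16.6% of the summed FPKM in controls and 56.2%, 45.2% and 25.5% in knockouts. Mup3 made up 38.9%, 53.5% and 63.6% in controls and 32.2%, 30.6% and 28.6% in knockouts. Neither set of shares overlapped, and shares of one total are not independent of each other. The Mup17 share ran from 3.95% to 39.3% in controls and 7.22% to 24.8% in knockouts.

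**Figure D3:**
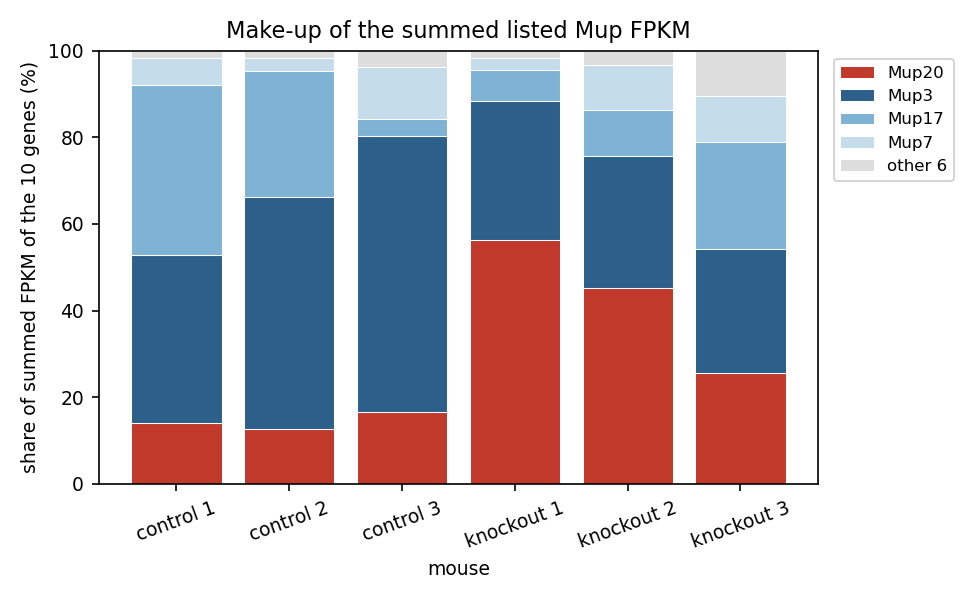
Share of the summed FPKM of the 10 listed genes (%) in each mouse, with Mup20, Mup3, Mup17 and Mup7 shown singly and the other 6 genes together. The Mup20 share runs from 12.7% to 16.6% in controls and from 25.5% to 56.2% in knockouts.

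Over the list, 1 of 10 genes was called higher and 0 lower, beside 13.9% and 2.61% of all tested genes. The unadjusted p was under 0.05 for 3 of the 10 genes, beside 35.3% of all tested genes. The median log2 difference was 0.43, beside 0.13 for all tested genes, with Mup5 at its fitted value. Of the 32 unlisted Mup rows, 16 reached the filter and 1 of these, Mup-ps19, was called. Among the unlisted genes, Mup10, Mup14 and Mup18 had the largest log2 differences, 2.85, 3.06 and -2.25. Mup10 stood at 9.81, 231 and 2.65 FPKM in controls and 68.8, 377 and 129 FPKM in knockouts. Mup14 stood at 14.4, 2.47 and 4.79 against 4.37, 231 and 143 FPKM, and Mup18 at 73.2, 30.6 and 1.23 against 2.55, 2.18 and 3.26 FPKM. Their adjusted p values were 0.217, 0.169 and 0.217. Leaving out 1 mouse brought each past the threshold: Mup10 without the second control (4.58, adjusted p 0.049), Mup14 without the first knockout (4.76, adjusted p 0.0278) and Mup18 without the third control (-3.73, adjusted p 0.0246). Over all alternatives their adjusted p reached 0.484, 0.394 and 0.454. Mup8, Mup9, Mup12, Mup13, Mup15 and Mup16 had log2 differences of 0.77, 0.65, 0.62, -0.86, 0.12 and -0.38, and none was called. Mup8 passed without the first knockout (1.3, adjusted p 0.0467) and under no other alternative, where its adjusted p reached 0.537. Among the pseudogenes, Mup-ps12, Mup-ps13, Mup-ps14, Mup-ps16 and Mup-ps17 had log2 differences of 0.97, 0.77, 1.28, 0.24 and -0.95 and were not called. Mup4 and Mup6 stayed under 1 FPKM in every mouse.

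Other genes of the region were read beside the 16.5% called over all genes. Between the outermost listed genes lay 7 rows without a Mup symbol, Gm21320 among them, of which 3 were tested and 0 called. Within 1 Mb outside, 14 of 34 such rows were tested and 1 was called. It was Hdhd3, a predicted hydrolase gene 449.3 kb from the Mup20 start, chosen here after its value was seen, with a log2 difference of -0.49 ± 0.12 (SE) and an adjusted p of 0.0396. The neighbours of Mup20 on the chromosome, Mup3 on one side and the pseudogenes Mup-ps19 and Mup-ps21 on the other, thus lay at -0.29, 2.12 and 3.46.

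**Figure D4:**
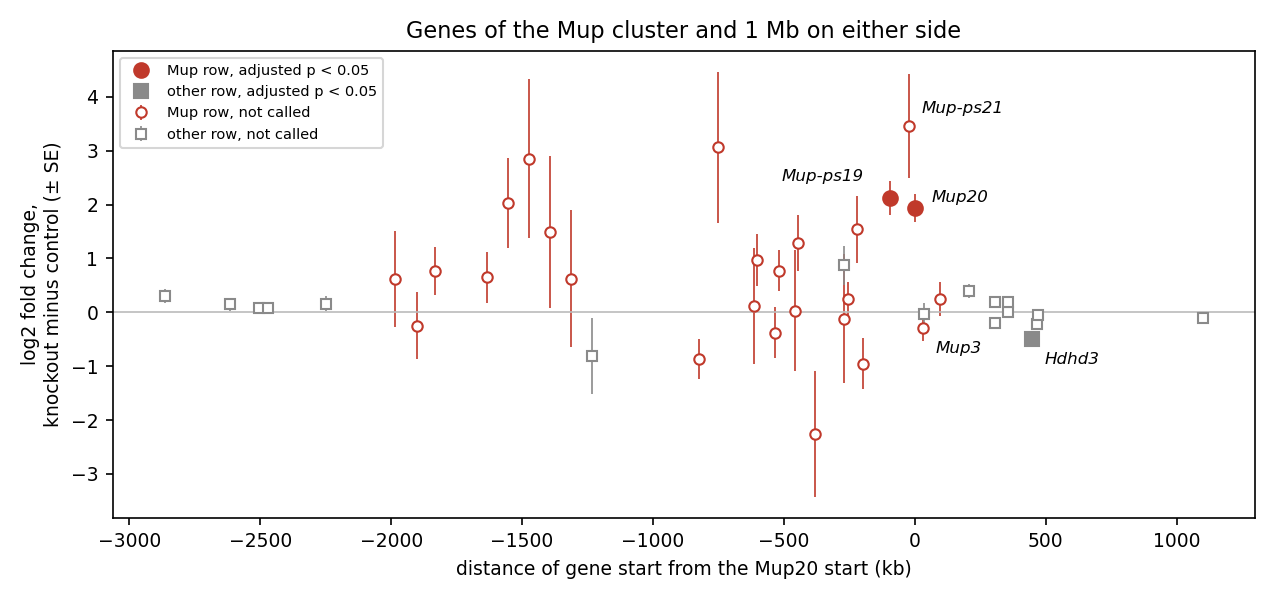
Log2 difference, knockout minus control (vertical, bars are SE), of each tested gene of the Mup cluster and 1 Mb on either side against the distance of its start from the Mup20 start in kb (horizontal). Filled symbols passed the threshold, and Mup20 at 1.93 and Mup-ps19 at 2.12 are the Mup rows among them.

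Promoter sequence was matched for 7 of the 10 genes, Mup2, Mup3, Mup7, Mup11, Mup17, Mup19 and Mup21, in RefSeq windows of 250 bases before to 50 after the start (GRCm38.p6). Mup1, Mup5 and Mup20 had no entry. Upstream, 150 bases are shown for a central gene and for Mup3, on the minus strand and 5′ to 3′, with matches to the C/EBP motif TTNNGNAA in capitals.
Mup17, chr4:61595833-61595982: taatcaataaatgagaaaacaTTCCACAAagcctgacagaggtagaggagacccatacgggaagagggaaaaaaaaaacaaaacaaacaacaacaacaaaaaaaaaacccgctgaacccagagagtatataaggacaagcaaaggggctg
Mup3, chr4:62087318-62087467: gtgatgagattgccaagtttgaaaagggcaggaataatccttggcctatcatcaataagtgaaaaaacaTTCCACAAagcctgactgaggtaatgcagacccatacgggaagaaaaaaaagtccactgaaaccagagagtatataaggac
Over all 250 bases before the start, more than is printed, Mup17 and Mup3 were 88.8% identical where they aligned. The same measure was 93.4% between Mup3 and Mup21 and 99.2% between Mup2 and Mup17. On either strand the C/EBP letters occurred in 7 of 7 windows, beside 40.7% of all 32851 promoter windows. The 7 are windows of related genes, 83.2% to 99.6% identical where they aligned, and are not independent. Counted from the annotated start, the last C/EBP match began at -129 in Mup17, -81 in Mup3 and 0 in Mup7. The glucocorticoid receptor core AGAACA occurred in 2 of 7, Mup3 and Mup21, beside 19.0% of all. Letters for STAT5 (TTCNNNGAA), FOXA (TGTTTAC), an HNF1 core (GTTAAT) and TATAAA occurred in 0 of 7, beside 8.3%, 3.65%, 7.1% and 13.6% of all. A variant TATA box is not counted: both printed stretches hold the letters TATATAAG, which TATAAA does not match. These are matches of letters in a short window only.

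The growth hormone pathway stands upstream of Mup transcription, and 17 of 19 genes chosen for it, outputs such as Igf1 included, were tested. In this list 3 genes were higher and 2 lower in knockout, with a median log2 difference of 0.09. Over all tested genes 13.9% were higher and 2.61% lower, with a median of 0.13. Igf1, the main endocrine product of growth hormone action in liver, fell from 80.4, 73.2 and 83.8 FPKM to 54.2, 49.5 and 62.9 (-0.51 ± 0.11, adjusted p 0.0279). Igfals, which stabilises circulating IGF1, fell by 0.81 on the log2 scale (adjusted p 0.021), and its partner Igfbp3 rose by 0.66 (adjusted p 0.0283). Stat5a rose by 0.49 (adjusted p 0.0265) and Jak2, the kinase that the receptor activates, by 0.37 (adjusted p 0.0367). Socs2 (log2 difference -0.26, adjusted p 0.593) and Cish (0.09, adjusted p 0.875) were among the 12 tested genes not called. Stat5b, the form through which growth hormone acts on male liver, had a log2 difference of 0.27 and an adjusted p of 0.0737, and the receptor Ghr one of -0.21 and 0.0909. Igf1, Igfals, Igfbp3 and Stat5a kept their direction under all 3 rescalings, but with median-ratio rescaling 0 genes of the list were called higher and 3 lower. Leaving out the second or the third control left 0 calls, and leaving out the first control, the first knockout or the second knockout left 1.

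Among 22 transcription factors of Mup and sex-biased liver genes, all tested, 2 were higher and 1 lower, with a median of -0.06. Beside them, 13.9% of all tested genes were higher and 2.61% lower, with a median of 0.13. Hnf4a, a core hepatocyte regulator, rose by 0.70 ± 0.12 (SE, adjusted p 0.0194) and Zbtb20, the repressor that silences alpha-fetoprotein in adult liver, by 0.48 ± 0.08 (adjusted p 0.0155). Nr1i3, the xenobiotic receptor CAR, fell by 0.47 (adjusted p 0.0194). Nr3c1, the glucocorticoid receptor, had a log2 difference of 0 (adjusted p 0.976). Median-ratio rescaling turned the split to 0 higher and 3 lower, where Hnf4a had an adjusted p of 0.0769 and Zbtb20 one of 0.0702, and Zbtb20 had 0.0671 after quantile normalization. Over all alternatives neither adjusted p exceeded 0.0769. Calls in this list went to 0 without the second control or the first knockout and to 1 without the third control or the second knockout.

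Sex-biased liver genes were read beside Mup20, a male-biased gene itself. Of 16 tested male-biased genes 3 were higher and 1 lower, with a median of 0.47, beside 13.9%, 2.61% and 0.13 over all tested genes. Selenbp2, a selenium-binding protein, stood at 0.754, 0.862 and 0.701 FPKM in controls against 5.31, 6.68 and 3.73 in knockouts, a rise of 1.79 ± 0.17 (SE, adjusted p 0.00564). C6, a complement component, rose by 1.43 (adjusted p 0.00985) and the carboxylesterase Ces2e by 0.60 (adjusted p 0.0276). Hsd3b5, a male-specific steroid dehydrogenase, fell by 1.5 ± 0.31 (SE, adjusted p 0.028). Both groups of Cyp4a12a, a male-specific omega-hydroxylase, overlapped, with a log2 difference of -0.18 (adjusted p 0.816). Without the third control, the first knockout or the second knockout 2 calls were left. The Hsd3b5 call was lost with no filter and in 5 of 6 fits that left out a mouse, all but that without the third knockout. The Ces2e call was lost in 4 of those 6 fits, with no filter and with median-ratio rescaling, with adjusted p up to 0.0914.

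Of 12 tested female-biased genes 3 were lower and 1 higher, with a median of -0.52, and 11 more were below the filter. For all tested genes these were 2.61% lower, 13.9% higher and a median of 0.13. Acot3, a peroxisomal thioesterase, fell by 2.47 ± 0.22 (SE, adjusted p 0.00451). Cyp17a1, a steroid hydroxylase, fell by 2.02 (adjusted p 0.00638) and Cyp2b9, a cytochrome P450 with close paralogs, by 1.58 (adjusted p 0.00927). Atp6v0d2, a proton pump subunit also abundant in macrophages, rose by 1.47 (adjusted p 0.018). The Atp6v0d2 call was lost without any 1 of the 3 controls, without the second knockout and with no filter, with adjusted p up to 0.0671.

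Other lipocalins and other secreted hepatocyte proteins share a fold or an origin with the Mup genes. Of 8 tested lipocalins 2 were higher and 1 lower, beside 13.9% and 2.61% of all tested genes. The acute-phase orosomucoids Orm3 and Orm2, which are close paralogs, rose by 3.37 ± 0.32 and 1.90 ± 0.35 (SE, adjusted p 0.00546 and 0.0218), and Apom, an apolipoprotein, fell by 0.44 (adjusted p 0.015). With the second knockout left out 1 lipocalin was called, and with the second control left out 5 were. Of 25 abundant plasma protein genes 2 were higher and 4 lower, with a median of -0.17. The same shares of all tested genes, 13.9% and 2.61%, came with a median of 0.13. Serpina1d, one of several near-identical antitrypsin genes, fell by 0.63 (adjusted p 0.0249), albumin (Alb) by 0.61 (adjusted p 0.0314) and Apoh by 0.43 (adjusted p 0.0228), and Ttpa rose by 0.52 (adjusted p 0.0453). Median-ratio rescaling turned the split to 0 higher and 6 lower, with Ttpa at 0.31 (adjusted p 0.17). Quantile normalization set Alb, the gene of highest level in every mouse, to a difference of 0 (adjusted p 1). Leaving out the second control, the third control, the first knockout or the second knockout left 0 of these calls, and leaving out the first control left 1. The ratio of Mup20 to Alb was 0.0409, 0.018 and 0.0239 in controls and 0.143, 0.191 and 0.126 in knockouts, with no overlap. That of Mup3 to Alb overlapped, at 0.0755 to 0.114 in controls and 0.0822 to 0.142 in knockouts.

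**Figure D5:**
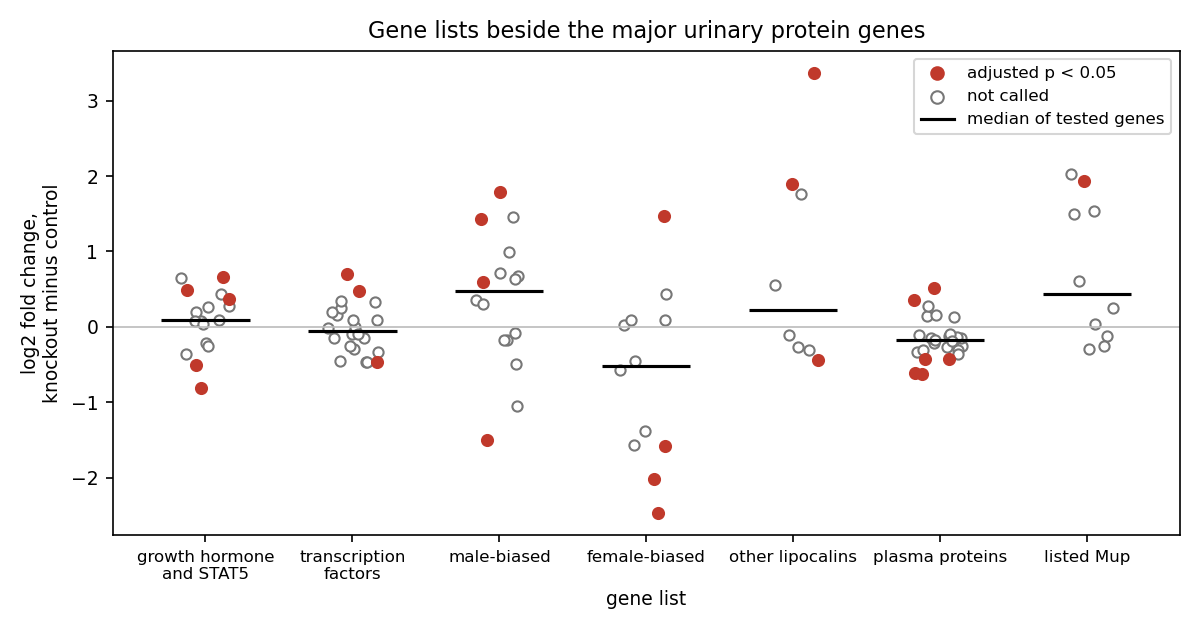
Log2 difference, knockout minus control (vertical), of each tested gene in 6 gene lists and in the listed Mup genes, with filled points past the threshold and a bar at each list's median. The medians run from -0.52 for female-biased genes to 0.47 for male-biased genes, with the Mup genes at 0.43, beside 0.13 for all tested genes. Of the Mup points 6 are near-identical central genes, among which the division of fragments is uncertain.

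Some markers of other cell types were higher in the knockouts. Their counts stand beside 13.9% higher and 2.61% lower of all tested genes. They are of the reported fit only and were not counted under the alternatives. Median-ratio rescaling cut the higher calls over all genes from 1532 to 739. Of 10 hepatocyte markers 1 was higher, Hnf4a, and 2 were lower, Alb and Ttr. The summed level of the 10, most of it Alb, was 50169 to 58954 FPKM in controls and 38044 to 42167 FPKM in knockouts. Of 8 macrophage markers 4 were higher and 0 lower, with Marco at -1.52 (adjusted p 0.0586), and their sum was 188 to 290 FPKM in controls and 311 to 587 in knockouts. Of 8 stellate cell and fibroblast markers 6 were higher, with sums of 38.8 to 46.7 and 81.4 to 110.5 FPKM. Of 6 endothelial markers 2 were higher, with Clec4g at 0.05 and Kdr at -0.01. Of the leukocyte, biliary and adipocyte markers, 5 of 8, 5 of 6 and 4 of 6 were below the filter, and Spp1, Cfd, Fabp4, Ptprc and S100a8 were higher. Fewer cells of a type and less RNA per cell cannot be told apart in whole liver, and the part of these markers in the Mup20 difference was not tested.

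Tubb4b-ps1, Hopx, Fam107b and C4a were among the 5 genes whose pattern over the 6 mice was most like that of the summed Mup FPKM. These 5 were taken from 2966 tested genes by the smallest mean absolute difference of centred log2 values, which was 0.17 to 0.19. The 2966 had a range of at least a set fraction of that of the sum, with no upper limit. Mup genes and predicted genes were left out. Fam107b stood at 24.1, 17.8 and 18.4 FPKM in controls and 22.2, 28.7 and 34.3 FPKM in knockouts. Like the Mup sum, it was highest in the third knockout and lowest in the second control. All points come from the same 6 libraries, and the likeness is a description only.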

How the data were processed

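Liver RNA of 6 mice was measured, 3 per group. The authors deposited 1 table of FPKM values per gene and mouse. Per the submitters' processing notes the tools were HISAT2 2.0.4, Bowtie2 2.2.6 and StringTie 1.3.0 with GRCm38. Neither the labels nor these notes state the strand setting or how multiply mapped fragments were handled, which matters for near-identical Mup genes. In each mouse 99.6% to 99.7% of low values, those under 20 fragments, were whole fragments within 0.1. The deposited FPKM were tested as log2(FPKM + 1) for every gene averaging 1 FPKM or more, with limma 3.58.1 in R (empirical Bayes with a trend, no block, Benjamini-Hochberg adjustment), after a test on simulated data. Replicates are separate mice per the labels. The exact permutation test of the summed FPKM cannot fall below 0.1 and is not printed. Coding sequences and transcript windows came from GENCODE M21. The Mup genes, the gene lists and the motifs were chosen with earlier results of these data known. The text names every Mup row that was tested, and up to 4 called genes of largest change per list. Jak2, Stat5b, Ghr, Socs2, Cish, Nr3c1 and Cyp4a12a were added for their roles after their values were seen. Some items that the rules would name are not reported here. Alternatives were another pseudocount (0.1 or 5), filter (none or 5 FPKM), 3 rescalings, robust empirical Bayes, a replicate block and leaving out each mouse.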

Additional observations from a re-analysis of the deposited data

How the results depend on the processing

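The Mup20 difference kept its direction and stayed past the threshold under all 16 alternatives, from 1.7 to 2.17 on the log2 scale and with adjusted p from 0.00752 to 0.0464. The count of called listed genes was 1 to 2 when each mouse was left out, 2 without the first knockout (with Mup1) and 2 without the third (with Mup5). The summed Mup difference, 0.45, was 1.02 without Mup3, -0.15 without Mup20, 0.02 without both and 0.21 to 0.78 with a mouse left out. Mup17 reversed to -0.19 and Mup15 to -0.09 with median-ratio rescaling. Leaving out single mice gave log2 ranges of -0.86 to 0.40 for Mup2, -0.02 to 1.58 for Mup7, -0.22 to 2.80 for Mup11, -1.11 to 0.90 for Mup17, -1.01 to 0.95 for Mup19, -0.02 to 0.56 for Mup21, -0.95 to 0.03 for Mup16, -0.65 to 1.17 for Mup15, -0.46 to 1.66 for Mup12 and -0.09 to 0.53 for Mup-ps16. The causes were not tested.

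Of the other lists, leaving out single mice gave 0 to 6 calls in the growth hormone list, 0 to 3 in the transcription factors, 2 to 5 in the male-biased genes, 1 to 5 in the lipocalins and 0 to 5 in the plasma proteins. With no filter the growth hormone list, the plasma proteins and the male-biased genes had 0, 0 and 2 calls. With a filter of 5 FPKM the male-biased genes had 2 and the transcription factors 5. Median-ratio rescaling gave 3 growth hormone and 5 lipocalin calls, quantile normalization 2 growth hormone and 3 plasma protein calls, and a common sum outside the Mup list 5 transcription factors. Over all genes, 1819 were called as reported, 650 with no filter, 1108 with a filter of 5 FPKM, 2940 with a common sum, and 287 to 2250 with a mouse left out. Same-numbered mice had correlations of their deviations of 0.111, 0.092 and 0.187, and each mouse correlated best with its own number. The labels do not state that they are paired, so the reported fit has no block, and whether they are paired remains unknown. With a replicate block 2018 genes, 1 listed Mup gene and 5 transcription factors were called, Mup20 had an adjusted p of 0.0172, and Mup13 passed with one of 0.0128 (0.0831 to 0.347 otherwise). Depth limits Mup5, with 2 fragments in 1 knockout.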
